A study of Mus musculus with 9 samples.

Results

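High protein (HP) feeding was compared with normal protein (NP) feeding in mouse liver on a high fat (HF) background, with the HF-HP pools set against the HF-NP pools of the same week. These are 4 of the 9 RNA pools of the study, chosen by their diet and week as labelled. All groups were male C57Bl/6J mice that first ate the low fat, normal protein diet (LF-NP) for 2 weeks. The HF-NP mice then received 35 energy% as fat, 15 energy% as protein and 50 energy% as carbohydrate, and the HF-HP mice received 35 energy% as fat, 50 energy% as protein and 15 energy% as carbohydrate, for 1 or 12 weeks. Their labelled ages were 13 and 22 weeks. Protein replaced carbohydrate at equal fat, so the effect of more protein and the effect of less carbohydrate cannot be told apart. Each pool held liver RNA of 5 mice and was hybridised to 1 Affymetrix Mouse Gene 1.0 ST array. Livers were taken after a calibrated meal, so all values are from the fed state. The other pools were the LF-NP and low fat, high protein (LF-HP) groups at the same weeks, where protein took the energy share of carbohydrate from 75 to 40 energy%, and a week 0 reference pool.

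The liver takes up amino acids from the portal blood, strips their nitrogen for urea synthesis and turns their carbon into glucose, ketone bodies or fat. Carbohydrate acts on the same cells through insulin and through carbohydrate response element binding protein (ChREBP, the product of Mlxipl), which raise glycolysis and fat synthesis. Amino acid imbalance acts through ATF4, and the load of secretory protein acts through the unfolded protein response (UPR) of the endoplasmic reticulum (ER).

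Values are log2 RMA signals, so a difference of 1 is a fold of 2. The array medians over genes lay between 5.83 and 5.89, and any pair of arrays correlated at 0.988 to 0.993 across all 35556 probe sets. The tissue label was borne out by its markers, since Alb, the serum albumin gene, measured 13.78 to 14.04 in the 4 HF pools and the mean of the 10 measured hepatocyte markers was 13.04 to 13.11. In bulk tissue, fewer cells of a type and less RNA per cell cannot be told apart.

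Of 19938 genes tested with limma, 31 passed at an adjusted p under 0.05, which is 0.155% of the genes. Of these, 20 (0.1%) were higher and 11 (0.0552%) lower in HF-HP. All 31 differed in the same direction at both weeks with no overlap between the HF-HP and HF-NP pools, and their differences ran from 0.74 to 3.06 in size on the log2 scale. The pools of a diet came from different weeks, so the p-values rest on the spread between pools of different mice around a common week effect. The LF pools supply part of that spread: with the 4 HF pools fitted alone, or with any 1 of them left out, 0 genes passed after limma's adjustment (in the HF pools alone 639 were higher and 417 lower at an unadjusted p under 0.05). With 2 pools a side an exact permutation test cannot give a two-sided p below 0.333.

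The largest rise was that of Tuba8, an alpha tubulin isoform. It measured 6.07 and 5.88 in the HF-NP pools at 1 and 12 weeks and 9.16 and 8.90 in the HF-HP pools. Both HF-HP pools lay far above every other pool of the study, where the highest value was 7.62. The difference was 3.06 ± 0.13 (SE, n = 2 pools a diet), an 8.33-fold rise (limma adjusted p = 0.00211).

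The largest fall was that of Slc17a8, which encodes a vesicular glutamate transporter. Its level was 9.14 and 8.67 in the HF-NP pools and 6.50 and 6.12 in the HF-HP pools. The groups were far apart, and the LF-HP pools (6.70 and 6.51) lay near the HF-HP pools. The difference was -2.60 ± 0.12 (limma adjusted p = 0.00211), a 6.05-fold fall.

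Several of the genes that rose act on amino acid carbon and nitrogen or on mitochondria. Ppargc1a, the transcriptional coactivator PGC-1α that drives mitochondrial and gluconeogenic genes, measured 7.90 and 7.64 in HF-NP and 9.47 and 9.79 in HF-HP. Its HF-HP pools were the highest of all 9 pools, the difference was 1.85 ± 0.20 (limma adjusted p = 0.0415), and a second probe set of the gene differed by 1.97. Aldh1b1, a mitochondrial aldehyde dehydrogenase, measured 7.31 and 7.27 in HF-NP and 9.35 and 9.55 in HF-HP, and thus rose by 2.16 ± 0.18 (limma adjusted p = 0.0326). Etnppl, the lyase that breaks down phosphoethanolamine, measured 10.31 and 9.97 against 11.64 and 11.73 and rose by 1.54 ± 0.12 (limma adjusted p = 0.0264). The HF-HP and HF-NP pools of these genes did not overlap, and HF-HP was the highest diet for each. Mthfd1l, the mitochondrial enzyme that releases formate from the folate cycle, measured 5.49 and 5.52 in HF-NP against 6.68 and 6.68 in HF-HP (difference 1.18 ± 0.10). Nnmt, which methylates nicotinamide, measured 11.17 and 11.15 against 12.33 and 12.48 and rose by 1.24 ± 0.12 (limma adjusted p = 0.0344). Nnmt differed by almost the same amount on the LF diets, by 1.22.

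The other genes that rose had varied roles. Plk3, a stress-responsive polo-like kinase, measured 8.79 and 8.17 in HF-NP and 10.57 and 10.27 in HF-HP (difference 1.94 ± 0.19, limma adjusted p = 0.0344). Egln3, a prolyl hydroxylase of the hypoxia response, rose by 1.28 ± 0.15 and Pfkp, a phosphofructokinase isoform that is scarce in liver, by 1.19 ± 0.10. Pfkp measured 5.29 and 5.17 in HF-NP and 6.30 and 6.52 in HF-HP, while its difference on the LF diets was -0.04. The LF value holds ties, since LF-NP at 1 week and both LF-HP pools had the same value, 5.35. Equal values occurred elsewhere too, with 8.82% of genes equal between HF-HP and HF-NP at 1 week. Their effect on the p-values was not tested. Gsta4, the glutathione S-transferase of the lipid peroxidation product 4-hydroxynonenal, measured 8.33 and 8.31 against 9.30 and 9.52 and rose by 1.10 ± 0.11 (limma adjusted p = 0.0344). Atp1b1, a subunit of the sodium pump, rose by 1.13 ± 0.12 from a high level of 10.08 and 10.14. Cdc42ep5, an effector of the small GTPase Cdc42, rose by 1.86 ± 0.13 on the probe set used, but its other probe set differed by 0.23. H1f2, a linker histone, rose by 1.42 ± 0.13, with probes that other histone genes may share. The remaining risers were Ntrk2, a neurotrophin receptor (1.22), Jazf1 (1.13), Cln6 (1.10), Golt1a (0.99), Tmem266 (0.98), Mtmr7 (0.91) and Gm15998 (0.79).

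The other genes that fell had varied roles too. Gask1a, a Golgi-associated kinase gene, measured 7.03 and 6.82 in HF-NP and 5.28 and 5.25 in HF-HP and fell by 1.66 on the log2 scale (SE 0.12, limma adjusted p = 0.0196). It and Slc17a8 were the 2 genes past the test on the LF diets as well (0.01% of genes tested). Txnip, the thioredoxin-interacting protein that ChREBP induces and that limits glucose uptake, measured 9.86 and 9.82 in HF-NP and 9.03 and 9.09 in HF-HP, a difference of -0.78 ± 0.08 (limma adjusted p = 0.0344). HF-NP was the highest diet for Txnip and HF-HP the lowest. Dio1, the deiodinase that makes and clears active thyroid hormone, measured 10.43 and 10.41 against 9.59 and 9.25 and fell 2.01-fold (SE 0.12 on the log2 scale, limma adjusted p = 0.0498). Leap2, a liver-made peptide that opposes ghrelin at its receptor, measured 6.72 and 6.52 against 5.77 and 5.62 (difference -0.92 ± 0.09, limma adjusted p = 0.0344). The pools of both genes did not overlap. Tcim differed by -1.16, Gm4952 by -0.82, and the carboxylesterase Ces2e and the cytochrome P450 Cyp2d13 by -0.77 and -0.74. Rnase2a, an eosinophil-type ribonuclease at a low level (3.60 to 5.20 in the HF pools), differed by -1.33. Ces2e, Cyp2d13 and Rnase2a have close paralogs whose transcripts their probes may share.

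**Figure D1:**
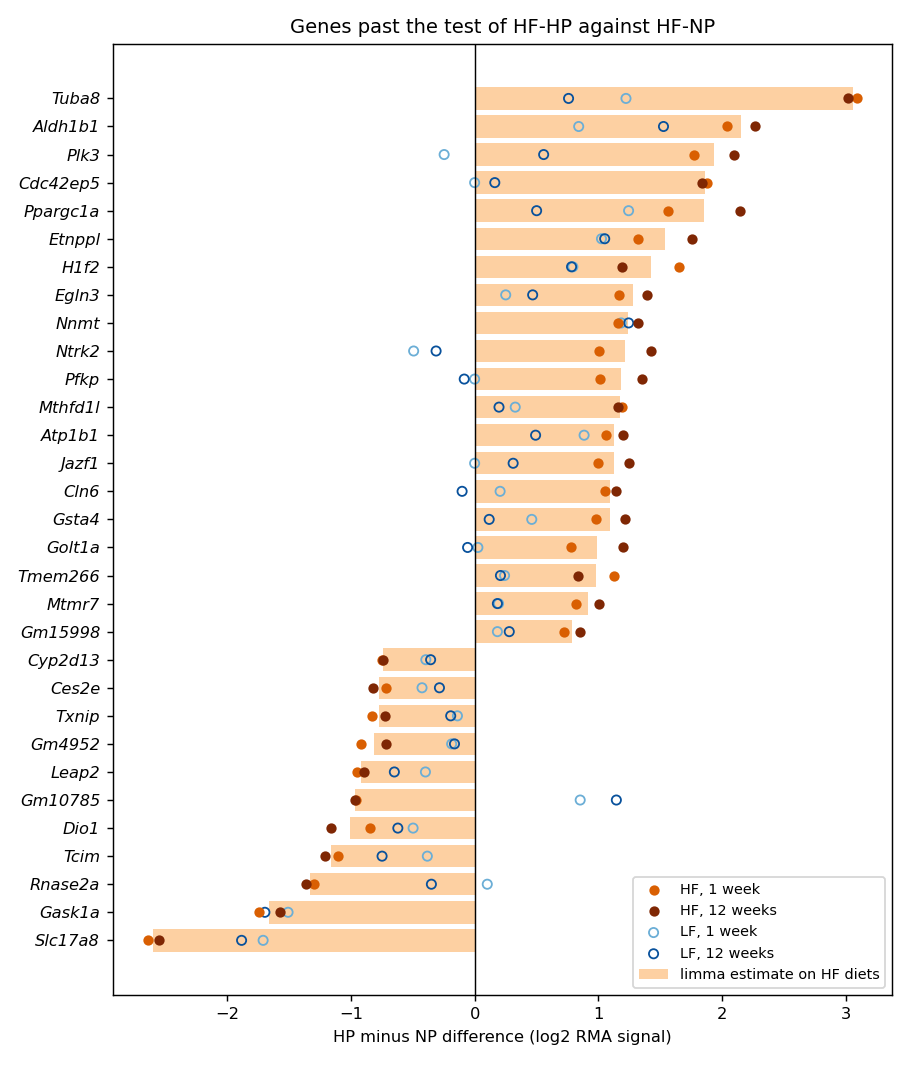
HP minus NP difference on the log2 scale (x axis) for the 31 genes past the limma test of HF-HP against HF-NP. Bars give the limma estimate on HF, filled points the differences at 1 and 12 weeks on HF and open points those on LF. Tuba8 (3.06) and Slc17a8 (-2.60) are at the ends, and Gm10785 has LF points on the other side of 0.

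For 27 of the 31 genes the LF difference had the same sign, and for 30 it was smaller in size than the HF difference. The HF pools chose these genes, so this is a description. The difference between the HF and LF effects was tested for all genes as an interaction contrast. With limma 0 genes (0%) passed at an adjusted p under 0.05, while 955 (4.79%) were higher and 445 (2.23%) lower at an unadjusted p under 0.05. The smallest adjusted p was 0.0538, for Gm10785, which measured 7.39 and 8.13 in HF-NP, 6.43 and 7.16 in HF-HP, 6.72 and 7.25 in LF-NP and 7.57 and 8.39 in LF-HP. HP was thus the lower diet on HF and the higher diet on LF at both weeks, although values at 1 week were lower than at 12 weeks in every diet. Tuba8 differed by 2.07 more on HF than on LF, at a limma adjusted p of 0.139 for that contrast.

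**Figure D2:**
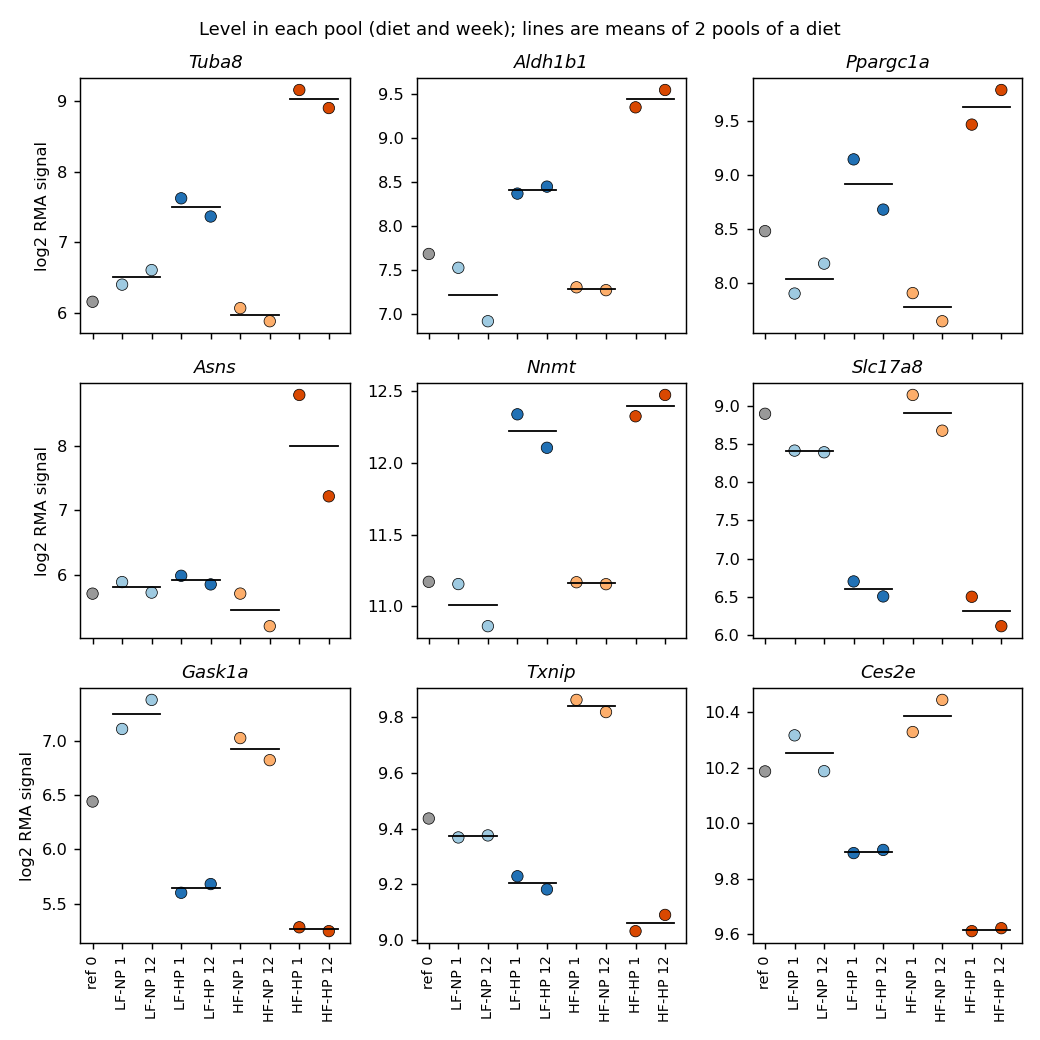
Level of 9 genes in each of the 9 pools, as log2 RMA signal (y axis), by diet and week (x axis). Lines are means of 2 pools of a diet. Asns is above 7 in the 2 HF-HP pools and at 6 or below elsewhere, whereas Nnmt is high in both HP diets.

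Another 27 genes lay just outside the threshold, with limma adjusted p-values of 0.0506 to 0.056. Asns, the ATF4-driven asparagine synthetase, had the largest difference of these. It measured 5.71 and 5.21 in HF-NP, 8.78 and 7.21 in HF-HP, 5.89 and 5.73 in LF-NP and 5.99 and 5.85 in LF-HP. The HF-HP pools stood alone above the other diets, and they differed from each other by more than the HF-NP pools did. The difference was 2.54 ± 0.33 (limma adjusted p = 0.0543), and the interaction contrast of 2.43 had a limma adjusted p of 0.541. Acmsd, which turns tryptophan carbon away from NAD synthesis, measured 8.80 and 7.68 against 10.28 and 10.37 (difference 2.08 ± 0.25, limma adjusted p = 0.0506). Slc16a5, a monocarboxylate transporter, measured 7.32 and 6.67 against 9.09 and 9.13 (difference 2.12 ± 0.27). Neither gene overlapped between the diets, and both differed by similar amounts on LF (1.65 and 1.87).

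The amino acid genes were read as lists, each given by its count of members and its median difference beside those of all genes. Over all genes the median difference was 0.004, 51.2% of genes had a positive difference, 5.79% were higher and 3.61% lower at an unadjusted p under 0.05, and HF-HP lay wholly above HF-NP for 16.7% and wholly below for 13.4%. Of 21 amino acid transporters 18 had a positive difference, 9 were higher at the unadjusted level and 14 had both HF-HP pools above both HF-NP pools, with a median of 0.26 (0.06 on LF). None passed the limma test. Slc7a2, the cationic amino acid transporter that supplies arginine and lysine, measured 11.25 and 10.78 in HF-NP and 12.23 and 12.30 in HF-HP (difference 1.25 ± 0.16, limma adjusted p = 0.0526). Slc43a1, a transporter of large neutral amino acids, measured 7.64 and 7.13 against 8.08 and 8.37 (difference 0.83 ± 0.19). The system A transporters Slc38a2 and Slc38a4 differed by 0.48 and 0.22. On LF, Slc7a2 and Slc43a1 differed by 0.81 and 0.78, and Slc38a2 and Slc38a4 by -0.07 and 0.19.

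In the list of 9 aminotransferases the 1 member that passed was Etnppl, which acts as a lyase and not as an aminotransferase. Of the 9, 8 had a positive difference and the median was 0.20 (0.29 on LF). Got1, the cytosolic aspartate aminotransferase, measured 11.96 and 11.08 in HF-NP and 12.91 and 12.73 in HF-HP (difference 1.30 ± 0.16, limma adjusted p = 0.0512). Its HF-HP pools were above both HF-NP pools, and the gap was wider at 12 weeks. On LF, Got1 differed by 0.70. The alanine aminotransferases Gpt and Gpt2 differed by 0.20 and 0.06. In the urea cycle list 0 of 11 passed, 8 had a positive difference and the median was 0.21 (0.18 on LF). Cps1, which fixes ammonia in the first step of the cycle, measured 13.32 and 13.15 against 13.46 and 13.43 (difference 0.21), and the mitochondrial ornithine carrier Slc25a15 and the glutamate carrier Slc25a22 differed by 0.58 and 0.88. Glul, the pericentral glutamine synthetase, measured 11.90 and 12.08 in HF-NP and 11.66 and 11.75 in HF-HP, a difference of -0.29, so it was lower in both HF-HP pools while it differed by 0.09 on LF.

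Amino acid breakdown lists had small positive medians on both fat levels, which on HF were larger at 12 weeks than at 1 week (0.19 against 0.01 for branched-chain amino acids, 0.30 against 0.03 for tryptophan and NAD, 0.17 against 0.04 for serine, glycine and threonine and 0.29 against 0.15 for tyrosine, phenylalanine and histidine). On LF the same medians were larger at 1 week. The HF-NP means of these lists were lower at 12 weeks than at 1 week. For branched-chain amino acids they were 9.64 at 1 week and 9.45 at 12 weeks, against 9.65 in both HF-HP pools. Tyrosine, phenylalanine and histidine breakdown had 6 of 11 members higher at the unadjusted level and a median of 0.23 (0.19 on LF). Tat, the tyrosine aminotransferase, differed by 0.41 and Hal, the histidine ammonia-lyase, by 0.44. Branched-chain amino acid breakdown had 16 of 19 positive members, 2 higher at the unadjusted level and a median of 0.09 (0.20 on LF). The serine, glycine and threonine list had a median of 0.10 (0.25 on LF), with Agxt at 0.56 (0.67 on LF) and Gcat at 0.49. Of 17 tryptophan and NAD genes 1 passed (Nnmt), 12 were positive and the median was 0.15 (0.08 on LF). Kyat1, a kynurenine aminotransferase, measured 10.40 and 10.07 against 10.80 and 10.67 (difference 0.50), and Nmnat1, which makes NAD in the nucleus, differed by 0.49. Cth, the cystathionine lyase of transsulfuration, measured 11.48 and 10.99 against 12.10 and 11.97 (difference 0.80 ± 0.11, limma adjusted p = 0.063).

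The ATF4 target list had 20 of 28 positive members, 7 higher at the unadjusted level and a median of 0.18 (0.01 on LF), with 0 past the test. Its HF median was 0.178 at 1 week but 0.052 at 12 weeks, against 0.033 and 0.035 on LF. Of the 28, 14 were higher at both weeks. Besides Asns, Atf3 differed by 0.74 (0.71 on LF) and the cystine transporter Slc7a11 by 0.72 (0.04 on LF). Slc7a11 was high in 1 of the HF-HP pools only, at 4.52 after 1 week against 3.38 after 12 weeks and 3.27 and 3.19 in HF-NP. Trib3, Ddit3 and Fgf21, other targets of the same factor, differed by -0.11, 0.01 and -0.21. Members of one list thus ran from -0.47 (Phgdh) to 2.54 (Asns). Of 16 cytosolic tRNA synthetases 15 were on the positive side, and their median was 0.14 (-0.05 on LF), with 0.01 at 1 week and 0.29 at 12 weeks. At 1 week their mean was 8.47 in HF-NP and 8.46 in HF-HP, and at 12 weeks 8.22 and 8.50. Of the 16, 9 were higher at both weeks, and Tars alone was on the negative side, at -0.41.

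The CARE element that ATF4 binds together with C/EBP factors was searched as TGATGNAA on both strands of the 250 bases before each start site. The motif was chosen after the values were seen. It was found for 7 of the 25 ATF4 list genes with an entry among the RefSeq promoters (GRCm38.p6) and in 3.45% of 32851 promoters. A gene counted where any of its promoter entries matched, whereas the 3.45% is over single promoters, so these are unlike measures. The windows of Asns and of 3 other members are shown 5′ to 3′ along the gene's strand, with the fixed letters of the motif in capitals, because these genes share the motif and differ in how HF-HP stood to HF-NP (2.54, 0.74, 0.72 and -0.21 in the order printed). They lie at chr6:7693210-7693252, chr1:191183416-191183463, chr3:50443652-50443699 and chr7:45615602-45615649, all on the minus strand.
Asns: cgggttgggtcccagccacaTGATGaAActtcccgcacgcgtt
Atf3: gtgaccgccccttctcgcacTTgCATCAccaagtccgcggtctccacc
Slc7a11: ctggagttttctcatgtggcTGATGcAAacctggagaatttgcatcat
Fgf21: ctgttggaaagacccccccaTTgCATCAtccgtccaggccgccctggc
Atf3 and Fgf21 hold the motif on the opposite strand, and the Slc7a11 window holds a second match on the opposite strand near its end, left in lower case. A match is a description of the letters, not of binding.

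Genes of carbohydrate use stood lower in HF-HP. In the list of glycolysis and ChREBP targets 1 of 17 fell (Txnip), 12 had a negative difference, 9 were lower and 4 higher at the unadjusted level and the median was -0.36 (-0.30 on LF). Khk, the fructose kinase, measured 10.85 and 11.03 in HF-NP and 10.18 and 10.45 in HF-HP (difference -0.63 ± 0.09, limma adjusted p = 0.0718). Mlxipl itself measured 10.93 and 10.71 against 10.37 and 10.11 (difference -0.58), and Pklr, the liver pyruvate kinase, 11.35 and 11.73 against 10.50 and 11.13 (difference -0.73). HF-HP was the lower diet in both weeks for these 3 genes, and they differed by -0.56 to -1.02 on LF. Slc2a2, the hepatocyte glucose transporter, differed by -0.47 and Gpd1 by -0.51. The 5 members with positive differences were the glycolytic enzymes Aldoa (0.47), Tpi1 (0.30), Pgk1 (0.30) and Pfkl (0.08) and Pfkfb3 (0.41), which sets the level of a phosphofructokinase activator.

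De novo lipogenesis genes were mixed. Of 17 members 10 had a negative difference, 5 were lower at the unadjusted level, 0 passed, and the median was -0.07 (-0.21 on LF). Thrsp, an inducer of lipogenesis, measured 11.91 and 12.00 in HF-NP and 11.09 and 11.44 in HF-HP (difference -0.69 ± 0.10, limma adjusted p = 0.0752). Fasn, Acaca and Elovl6 differed by -0.56, -0.43 and -0.48, whereas Acly differed by 0.29 and Scd1, at 13.49 to 13.64 in all 4 pools, by -0.07. Sterol synthesis had 18 of 20 positive members and a median of 0.23 (0.34 on LF), with Sqle, the squalene epoxidase, at 0.69. Desaturases and elongases had 12 of 13 positive members and a median of 0.31 (-0.05 on LF). Acsl4, which activates arachidonic acid, measured 9.85 and 9.23 against 10.80 and 10.40 (difference 1.06 ± 0.14, limma adjusted p = 0.064) and differed by 0.69 on LF. Fatty acid oxidation and ketogenesis had a median of -0.03, with 0 of 25 past the test and 2 lower at the unadjusted level. Cpt1a, the gatekeeper of mitochondrial fat entry, measured 11.83 and 11.83 in HF-NP and 11.70 and 11.79 in HF-HP.

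The gluconeogenesis list had 12 of 15 positive members, 1 past the test (Ppargc1a) and a median of 0.18 (0.00 on LF). Pck1, the cytosolic phosphoenolpyruvate carboxykinase, measured 12.43 and 12.06 in HF-NP and 12.79 and 12.86 in HF-HP (difference 0.58 ± 0.16, limma adjusted p = 0.285), while Pcx differed by -0.16 and Fbp1 by 0.13. On LF, Ppargc1a differed by 0.87, Pck1 by 0.29 and Fbp1 by -0.08. The cyclic AMP response element TTACGTCA, chosen after the values were seen and found in 0.447% of the promoters, stands at chr2:173152960-173153007 on the plus strand before Pck1 and is shown since this gene carries the pathway's regulated step.
Pck1: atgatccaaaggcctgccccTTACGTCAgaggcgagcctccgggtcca
Sik1, a kinase gene induced by cyclic AMP, measured 8.55 and 8.17 in HF-NP and 8.90 and 9.21 in HF-HP (difference 0.70). Igfbp1, which insulin represses, measured 8.51 and 7.60 against 9.13 and 9.08 (difference 1.05 ± 0.35, limma adjusted p = 0.407). In the list of insulin and glucagon signalling 0 of 20 passed and the median was 0.01, with a sign that turned to -0.00 when arrays were centred on their median.

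**Figure D3:**
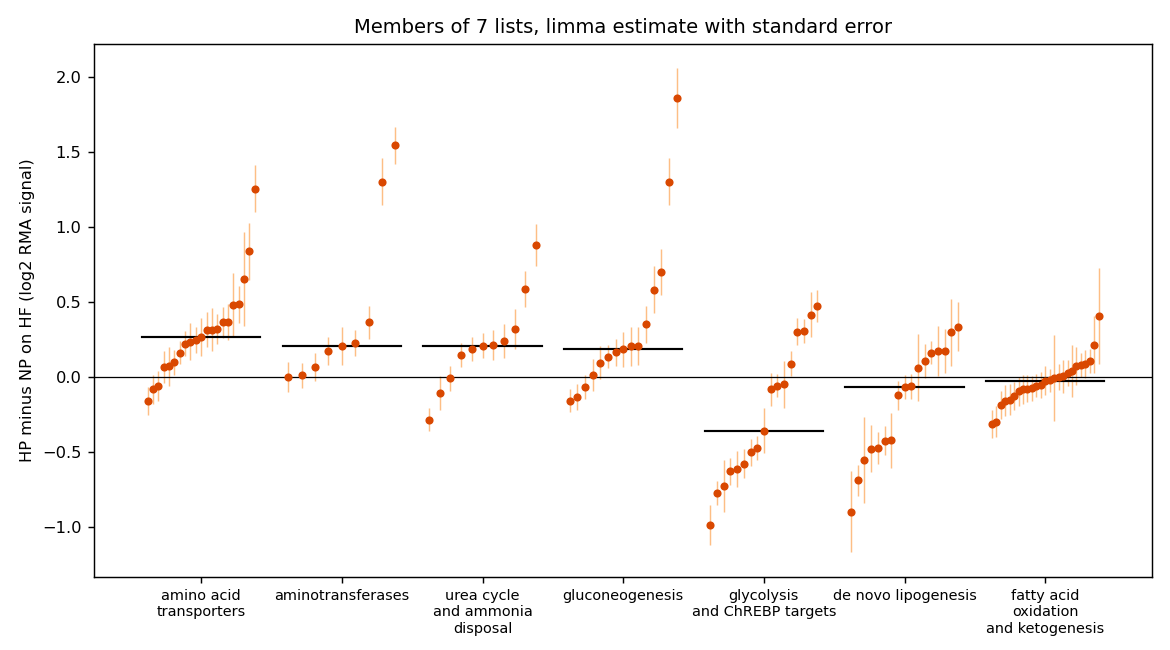
HP minus NP difference on HF (y axis, log2 RMA signal) for the members of 7 lists, as limma estimates with standard errors. Horizontal lines are list medians, from 0.26 for amino acid transporters to -0.36 for glycolysis and ChREBP targets.

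Mitochondrial lists had positive medians that on HF were larger at 12 weeks, with 1 pool a diet and week. All 15 measured ATP synthase genes had a positive difference (median 0.18, and 0.14 on LF), with medians of 0.09 at 1 week and 0.31 at 12 weeks. On LF the medians were 0.16 at 1 week and 0.11 at 12 weeks. The ATP synthase mean was 11.03 in both HF-HP pools, against 10.95 at 1 week and 10.72 at 12 weeks in HF-NP. The wider gap at 12 weeks thus went with a lower HF-NP pool. Complexes III and IV had a median of 0.18 and the tricarboxylic acid cycle list 0.15, with 8 of 24 members higher at the unadjusted level. Idh2, the mitochondrial NADP-dependent isocitrate dehydrogenase, measured 9.99 and 9.67 in HF-NP and 10.50 and 10.59 in HF-HP (difference 0.71 ± 0.11, limma adjusted p = 0.0907). None of these genes passed the test.

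The chaperones of the endoplasmic reticulum stood lower in HF-HP than in HF-NP. Of the 20, 18 were lower at both weeks (3961 of 19938 over all genes), Edem1 at 12 weeks only and Atf6 at 1 week only. The list mean was 10.84 and 10.84 in HF-NP, 10.64 and 10.53 in HF-HP, 10.56 and 10.38 in LF-NP and 10.66 and 10.41 in LF-HP. HF-NP was thus the highest diet, and HF-HP stood above LF-NP in each week. The week 0 reference pool, which had eaten LF-NP, had a mean of 10.77. That was above both HF-HP pools and both later LF-NP pools, so pools of the LF-NP diet also differed. Of 20 genes in this list 20 had a negative difference, 17 had both HF-HP pools below both HF-NP pools and 10 were lower at the unadjusted level, although 0 passed the limma test. The median was -0.25, with -0.22 at 1 week and -0.29 at 12 weeks, against 0.10 on LF. Hspa5, which encodes the chaperone BiP, measured 12.80 and 12.66 in HF-NP and 12.58 and 12.39 in HF-HP (difference -0.24 ± 0.09). Hsp90b1, which encodes the chaperone GRP94, measured 11.99 and 11.84 against 11.71 and 11.54 (difference -0.29). Creld2 had the largest difference, with 11.001 and 10.870 in HF-NP, 10.49 and 10.22 in HF-HP (difference -0.58 ± 0.13, limma adjusted p = 0.202) and a positive LF difference of 0.26. The isomerases Pdia4 and Pdia3 differed by -0.44 and -0.31, and the transducers Ern1, Xbp1 and Atf6 by -0.37, -0.16 and -0.06. Ern1 was lower on LF too, at -0.65. For the difference between HF and LF, 9 of the 20 were lower at an unadjusted p under 0.05, against 2.23% of all genes, and none passed limma's adjustment.

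The ER stress response element, to which ATF6 and NF-Y bind, was searched as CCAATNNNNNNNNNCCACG on both strands in the same way and also after the values were seen. It was found in any promoter entry for 7 of the 17 genes of this list that had one, and in 0.113% of all promoters counted singly. These windows are shown for 5 of them as a description of the letters. The list is of unfolded protein response genes, and list and motif were both chosen with results of these data known. The matches are thus no independent support for the list. They lie at chr2:34772005-34772063 (plus strand), chr10:86705618-86705676 (minus strand), chr11:50325780-50325838 (minus strand), chr12:17266471-17266529 (plus strand) and chr15:88819500-88819558 (plus strand), and the capitals mark the fixed letters of the element, on the opposite strand for Creld2.
Hspa5: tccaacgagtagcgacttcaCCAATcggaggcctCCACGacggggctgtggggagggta
Hsp90b1: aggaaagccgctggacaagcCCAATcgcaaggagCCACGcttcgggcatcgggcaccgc
Canx: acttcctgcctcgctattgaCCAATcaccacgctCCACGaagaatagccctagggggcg
Pdia6: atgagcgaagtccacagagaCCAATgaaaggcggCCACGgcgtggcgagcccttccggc
Creld2: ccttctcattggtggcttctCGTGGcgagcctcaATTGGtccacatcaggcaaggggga
The genes with the element had differences from -0.08 (Canx) to -0.58 (Creld2).

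Cell cycle genes stood on the other side. Of 22 members 21 had a positive difference, 16 had both HF-HP pools above both HF-NP pools and 15 were higher at the unadjusted level, with a median of 0.35 (-0.04 on LF). The median was 0.41 at 1 week and 0.20 at 12 weeks, and 0 genes passed the limma test. Cdk1, the mitotic kinase, measured 5.73 and 5.56 in HF-NP and 6.44 and 6.13 in HF-HP (difference 0.63 ± 0.09, limma adjusted p = 0.064). Ccnb2, its cyclin partner, measured 5.66 and 5.63 against 6.57 and 6.55 (difference 0.91 ± 0.14, limma adjusted p = 0.0869). Top2a measured 4.03 and 4.13 against 4.70 and 4.74, and the proliferation marker Mki67 5.34 and 5.34 against 5.79 and 5.52. These levels lay around or below the median of all genes, 5.85, so the transcripts gave low signals. Ccnd1, the cyclin of entry into the cycle, measured 8.68 and 8.47 in HF-NP and 9.50 and 8.81 in HF-HP (difference 0.58) and differed by -0.47 on LF. Pcna was nearly level at 0.04, and Rrm2 alone was lower, at -0.34. For the difference between HF and LF, 12 of the 22 were higher at an unadjusted p under 0.05, against 4.79% of all genes.

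Markers of other liver cells were read beside these lists, and none passed the test on HF. The mean of 12 Kupffer cell markers was 7.83 and 8.25 in the HF-NP pools and 8.16 and 8.24 in the HF-HP pools, against 7.84 and 8.22 in LF-NP and 7.45 and 7.80 in LF-HP. The HF-HP means lay within the range of the HF-NP means, whereas LF-HP was the lower diet in each week on LF. Adgre1, which encodes the macrophage protein F4/80, measured 7.36 and 7.63 in HF-NP and 7.69 and 7.85 in HF-HP (difference 0.27) and differed by -0.66 on LF. The defining markers Clec4f and Timd4 differed by -0.03 and 0.12 on HF. Of 12 markers 10 had a positive HF difference, with a median of 0.18 (-0.47 on LF), and the medians were 0.33 at 1 week and 0.02 at 12 weeks. The 10 sinusoidal endothelial markers had a mean of 8.48 and 8.46 in HF-NP and 8.60 and 8.71 in HF-HP and a median difference of 0.11. Stellate cell markers had a mean of 8.02 to 8.14 and a median difference of 0.06, and lymphocyte, neutrophil and cholangiocyte markers had means of 4.33 to 4.78 and median differences of -0.08, -0.03 and -0.02. The part of these cell types in the gene differences was not tested.

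**Figure D4:**
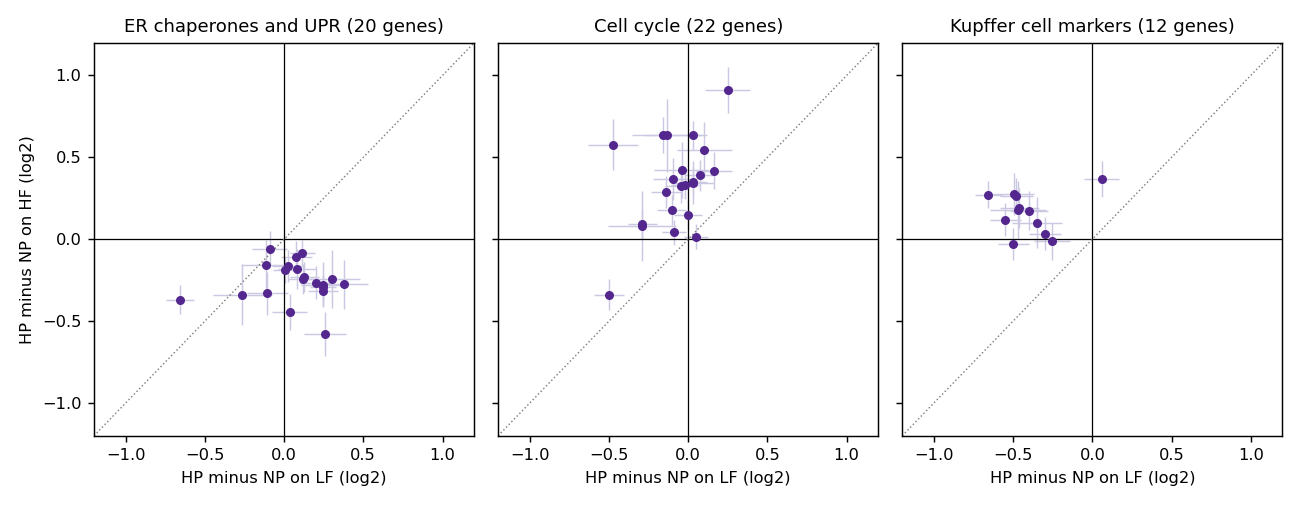
HP minus NP difference on HF (y axis) against that on LF (x axis), log2, for the members of 3 lists, with standard errors of the limma fit; the dotted line marks equal differences. All 20 ER genes lie below 0 on HF, 21 of 22 cell cycle genes lie above 0, and 10 of 12 Kupffer cell markers lie above 0 on HF while 11 lie below 0 on LF.

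Detoxification genes split by family. Of 15 carboxylesterases 14 had a negative difference, 13 had both HF-HP pools below both HF-NP pools, 11 were lower at the unadjusted level and 1 fell (Ces2e), with a median of -0.39 (-0.14 on LF). Ces2e measured 10.33 and 10.45 in HF-NP and 9.61 and 9.62 in HF-HP (limma adjusted p = 0.0464). Ces1e and Ces2a differed by -0.69 and -0.62, and Ces1d, a triglyceride hydrolase, measured 12.22 and 12.26 against 11.84 and 11.73. Paralogs of this family may share probes, so their counts are not independent. Glutathione S-transferases went the other way, with 14 of 17 positive, 9 higher at the unadjusted level, 1 that rose (Gsta4) and a median of 0.30 (0.29 on LF). Gsto1 differed by 0.63.

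The list of cytochromes P450 driven by the receptors CAR and PXR also counted Nr1i3 as a member. Of the 18 members 14 had a negative difference, and the median was -0.16 (0.07 on LF). Nr1i3, the gene of CAR itself, measured 11.09 and 10.82 in HF-NP and 10.27 and 10.11 in HF-HP (difference -0.77 ± 0.09, limma adjusted p = 0.0506), with -0.00 on LF. Cyp2c50 and Cyp2c54 differed by -0.57 and -0.48 on HF and by 0.19 and 0.28 on LF. Cyp2b10, the classic CAR target, had the largest positive difference of the list. Its level was 6.43 and 5.19 in HF-NP and 7.45 and 5.77 in HF-HP (difference 0.80, limma adjusted p = 0.714), with a difference of 1.67 on LF. It was the higher in HF-HP at each week, although the pools overlapped across weeks. Cyp3a11 was low in 1 pool, with 11.74 and 12.02 in HF-NP, 11.50 at 1 week and 10.00 at 12 weeks in HF-HP. Bile acid genes had a median of -0.10, with Cyp7a1, the rate-limiting enzyme of bile acid synthesis, at -0.13 and the uptake carrier Slco1a1 at -0.66. Of 33 complement and coagulation genes 28 had a negative difference, 22 had both HF-HP pools below both HF-NP pools and 11 were lower at the unadjusted level (median -0.12, and -0.10 on LF). C1s1 and Mbl1 differed by -0.48 and -0.36. Interferon response genes had a median of -0.11 on HF and -0.35 on LF.

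**Figure D5:**
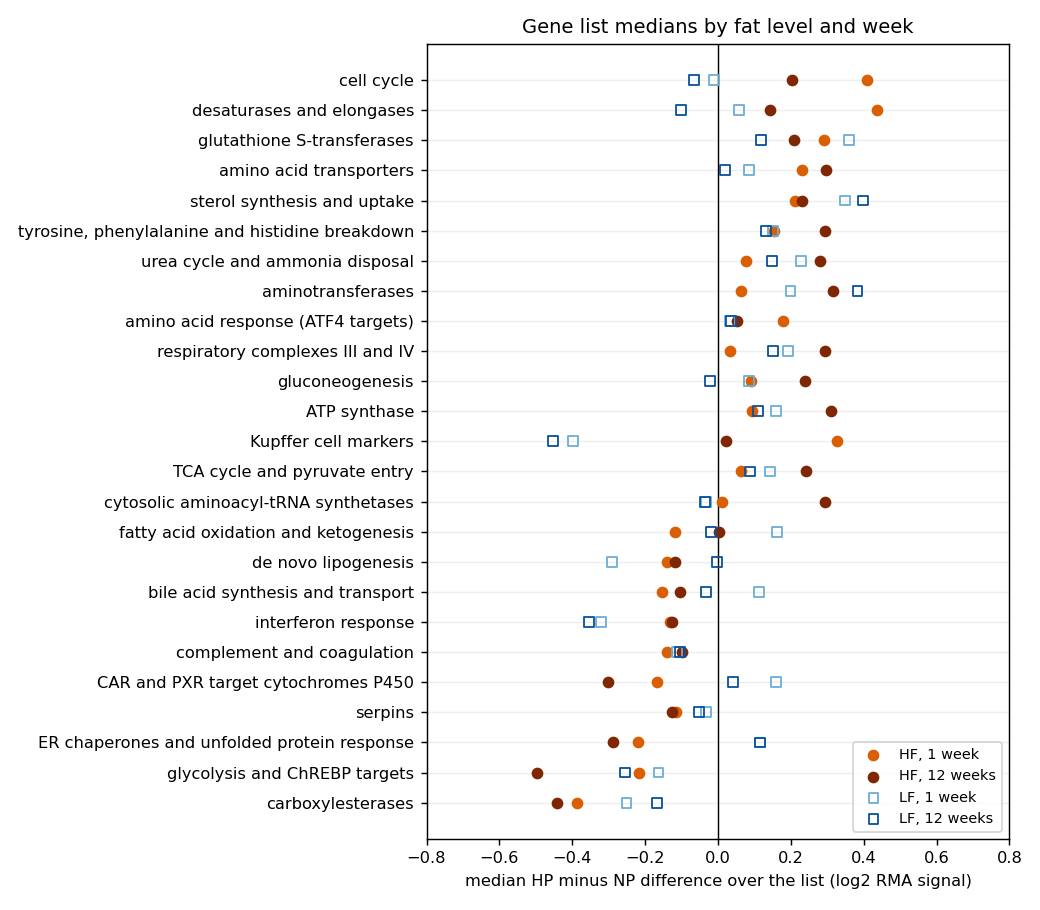
Median HP minus NP difference over each of 25 lists (x axis, log2 RMA signal) at 1 and 12 weeks on HF (filled circles) and on LF (open squares). ER chaperones are at -0.22 and -0.29 on HF and cell cycle genes at 0.41 and 0.20, whereas glycolysis and ChREBP targets are below 0 in all 4 comparisons.

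The 2 weeks were set side by side for the genes whose HF difference varied most between them, each from 1 pool a diet and week and thus with no replicate check. At 1 week 58 genes (0.291%) were higher and 18 (0.0903%) lower in HF-HP by 1 or more on the log2 scale, at 12 weeks 83 (0.416%) were higher and 36 (0.181%) lower, and 37 genes were past this size in the same direction at both weeks. Acute phase proteins had 5 of 21 members past this size at 1 week and 2 at 12 weeks, and the growth hormone and IGF axis 5 of 20 and 1. Lcn2, the neutrophil lipocalin made by inflamed liver, measured 7.57 in HF-NP and 9.34 in HF-HP at 1 week but 10.10 and 8.43 at 12 weeks. Saa2, a serum amyloid, measured 7.44 and 8.99 at 1 week and 8.71 and 7.85 at 12 weeks. Cyp2b9, which is normally low in male liver, measured 7.78 and 8.66 at 1 week and 10.16 and 8.06 at 12 weeks. For each of these, HF-HP was the higher pool at 1 week and the lower at 12 weeks, and their mean differences (0.05, 0.35 and -0.61) did not show it. Myc measured 6.42 in HF-NP and 8.26 in HF-HP at 1 week but 6.53 and 6.68 at 12 weeks. The Myc level was 8.01 and 8.12 in LF-NP, 6.70 and 7.85 in LF-HP and 8.44 in the reference pool. The HF-HP pool of 1 week thus stood near the LF-NP pools, and the HF-NP pools lay below them. Among genes with the larger difference at 12 weeks was Cabyr, with 7.31 and 7.98 at 1 week and 6.36 and 8.70 at 12 weeks.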

How the data were processed

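Liver RNA of 9 diet groups was measured, as 1 pool and 1 array a group. The authors deposited log2 expression values made by robust multi-array average (RMA), which were used without rescaling. Of 35556 probe sets, 21789 named 1 gene, 1621 several and 12146 none, and those with 1 gene were kept. Symbols were updated through Entrez identifiers to RefSeq GRCm38.p6, and the probe set of the highest mean stood for a gene (19938 genes, 999 with several probe sets).

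Diet and week were fitted over the 8 diet pools with limma 3.58.1 in R 4.3.3, with 3 residual degrees of freedom, and HF-HP minus HF-NP, LF-HP minus LF-NP and their difference were tested. P-values were adjusted by Benjamini-Hochberg over all genes, with a threshold of 0.05. The LF pools thus share the estimate of spread. The labels give diet and week and no replicate number, and the week term pairs pools of the same week. The fit was tested on simulated pools that had no week effect, so that run cannot check the pairing by week. List counts came from pandas 2.3.3 and NumPy 2.4.6 under Python 3.11.15, and plots from matplotlib 3.10.9.

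The members, the 59 lists (1102 entries, 108 without a value) and the tests were chosen with earlier results of these data known. Named genes were the 12 largest rises and the 11 falls past the test (up to 12 a direction), up to 4 members of each list past the test or those that passed and its first 3 members, and the 5 genes a direction whose HF difference varied most between weeks at a level above the median. Other named genes, and the motifs, were chosen after their values were seen. Alternatives changed the samples, the week term, the filter, the prior variance, array weights, centring, the probe set rule and the threshold. RMA sets all arrays to one distribution, so a shift of most genes would not show, and pooling leaves the spread between mice unmeasured. The study's methods describe probes regrouped by Entrez Gene, whereas the deposited table holds the array's own probe sets. The number of arrays limits the precision.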

Additional observations from a re-analysis of the deposited data

Results flagged for a closer look

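A closer look is due where HP and NP differed in opposite directions on HF and on LF at both weeks. The values here are the HP minus NP difference on HF minus that on LF, on the log2 scale, taken for a list as the median over its members. For single genes the difference was tested as limma's interaction contrast, and with 2 pools a diet none passed after adjustment (0 genes, with 1400 at an unadjusted p under 0.05). For the lists it was not tested.

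Among the lists, Kupffer cell markers had the largest value, 0.6104, followed by cell cycle genes at 0.3698, sinusoidal endothelial markers at 0.2795 and cytosolic tRNA synthetases at 0.1796. CAR and PXR target cytochromes P450 stood at -0.424, other PPAR-alpha targets at -0.3204, ER chaperones and the unfolded protein response at -0.3101, UDP-glucuronosyltransferases, sulfotransferases and FMOs at -0.2586 and pericentral genes at -0.214. Some of these rest on 1 week, since the HF median was 0.02 at 12 weeks for Kupffer cell markers, 0.01 at 1 week for tRNA synthetases, and at 12 weeks -0.005 for other PPAR-alpha targets and -0.02 for UDP-glucuronosyltransferases, sulfotransferases and FMOs. In that week the mean over the members of each of these 4 lists went the other way.

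Among genes past the test on HF, the value was 1.6181 for Ntrk2 and -1.9655 for Gm10785. In the ER list it was -0.8352 for Creld2, -0.5591 for Pdia3, -0.5433 for Dnajb9, -0.5395 for Hsp90b1, -0.4813 for Pdia4 and -0.3612 for Hspa5. Genes of growth and its control gave 1.7793 for Myc, 1.3363 for Socs2, 1.0514 for Ccnd1 and 0.7981 for Top2a. Macrophage genes gave 0.9287 for Adgre1 and 0.7444 for Cd5l. Other non-hepatocyte markers gave 0.3273 for Clec4g, 0.2251 for Reln, 0.2709 for S100a8, -0.6789 for Ly6g and -0.2702 for Slc4a1.

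Cytochromes P450 and conjugating enzymes gave -0.7679 for Cyp2c54, -0.7601 for Cyp2c50, -0.4296 for Cyp7a1, -0.4204 for Ugt2b5, -0.2669 for Ugt2b1 and -0.1597 for Cyp2e1. Secreted proteins gave -0.4782 for Serpina1d, -0.3973 for Serpina1c and -0.3137 for Alb. Amino acid and fuel genes gave 0.4033 for Sars, 0.1802 for Wars, 0.2155 for Fbp1, 0.2498 for Fads2, -0.4201 for Aadat, -0.4279 for Otc and -0.3747 for Glul. Members of the Cyp2c, Ugt2b and Serpina1 families may share probes.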

How the results depend on the processing

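The counts of 20 higher, 11 lower and 0 interaction genes moved with most alternatives, while none of the 24 called genes named by the rule changed direction in any of these alternatives. With week as the replicate block within the 4 HF pools alone, 0 genes were higher and 0 lower after limma's adjustment (639 and 417 at an unadjusted p under 0.05). An HP by week term left 10 higher and 4 lower, and array weights 5 and 2. Genes above the median level gave 99 higher, 63 lower and 2 interaction genes, an intensity trend 52, 42 and 1, arrays centred on their median 58, 38 and 2, and an adjusted p under 0.1 72, 45 and 1. The mean over probe sets gave 17 lower. Without week (no replicate block) 19 were higher and 15 lower. Leaving out 1 pool gave 0 to 2 higher, 0 to 1 lower and 0 to 1 interaction genes. It was 0 and 0 without any 1 of the 4 HF pools, and without an LF pool 1 to 2 higher and 1 lower. The interaction gene came without the LF-NP pool of 1 week. Of these 24 genes, 24 kept their call with the trend, centring and mean over probe sets, 18 without week, 9 with the HP by week term, 7 with array weights and 0 in the HF pools alone. Tuba8 and Slc17a8 kept it in 11 of 16 alternatives. The cause was not tested. Small differences that passed no test did turn: the medians of 15 of 59 lists took the other sign in at least 1 alternative, among them insulin and glucagon signalling, fatty acid oxidation and the stellate cell, cholangiocyte, lymphocyte and neutrophil markers, and leaving out an HF pool turned the differences of Cpt1a, Gpt2, Cyp7a1, Clec4f, Wars and the acute phase genes Lcn2 and Saa2. The medians of the amino acid transporters, glycolysis and ChREBP targets, ER chaperones, cell cycle genes and carboxylesterases kept their sign in each alternative.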

Other observations

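Genes of other processes also differed between HF-HP and HF-NP without passing the limma test. Serpina12, the adipokine vaspin, measured 7.70 and 7.94 in HF-NP and 5.57 and 5.84 in HF-HP, a difference of -2.11 on HF and -2.34 on LF (limma adjusted p = 0.0728 on HF). Its pools lay far apart at both fat levels. Ppat, which starts purine synthesis, measured 7.44 and 6.78 against 8.21 and 8.47 (difference 1.23), while its list of 19 genes had a median of 0.14. Fst, the activin antagonist follistatin, measured 5.98 and 6.29 against 6.83 and 6.90 (difference 0.73, and -0.04 on LF). Inhba, which encodes an activin subunit, differed by -1.38 ± 0.32 on HF and by -1.76 on LF.

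Of 23 NRF2 targets and glutathione synthesis genes 8 were higher and 4 lower at an unadjusted p under 0.05, with a median of 0.10. Srxn1 (sulfiredoxin) measured 7.72 and 7.73 in HF-NP and 8.22 and 8.30 in HF-HP (difference 0.53), whereas Gclc, which makes the glutathione precursor, differed by -0.28. The clock genes Per1 and Nr1d1 differed by 0.61 and 0.42, and the list of 18 clock genes had a median of 0.03. Cd36, a fatty acid carrier, measured 9.03 and 9.07 against 9.81 and 9.75 (difference 0.74, and 1.54 on LF), and Plin2, which coats lipid droplets, differed by -0.18. Serpins had 14 of 17 negative members and a median of -0.18, with paralogs that may share probes.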
